A study of Mus musculus with 10 samples.

Results

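The genes described here mark endothelial cells, which line blood and lymph vessels, and were followed through the differentiation of SMYD5-depleted ES cells. They were picked by their gene symbols, with earlier results of these data known, and comprise 10 of the 22878 symbols listed. The set holds the receptor tyrosine kinases Tie1, Tek, Kdr, Flt1 and Flt4, the surface and junction proteins Cdh5, Pecam1, Eng and Esam, and the transcription factor Etv2. RNA-Seq of polyA RNA was carried out on R1 mouse ES cells and on the embryoid bodies (EBs) grown from them. All cells carried a lentiviral short hairpin RNA selected with puromycin, directed in the control to luciferase (shLuc) and in the knockdown to Smyd5 (shSmyd5). Each was sampled as undifferentiated ES cells and as EBs at 24 h, day 6, day 10 and day 14 (d6, d10 and d14), with 1 library per condition and 10 libraries in all. The ES cells had been passaged on gelatin with LIF and a GSK3 inhibitor to remove feeder cells, and the EBs formed in low-attachment dishes without LIF. Which of the study's hairpins to Smyd5 was used here, and whether the shSmyd5 cells were 1 clone or a pool, is not given in the sources used here.

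Endothelial cells arise from mesoderm, and Etv2, an ETS factor, is needed early in that step. The VEGF receptors then carry the growth signal: Kdr is the main signalling receptor of VEGF-A, Flt1 binds VEGF-A tightly and can act as a decoy, and Flt4 serves VEGF-C in lymphatic vessels. Tek is the angiopoietin receptor and Tie1 its co-receptor without a well-established ligand, while Cdh5, Pecam1 and Esam hold the cells together at their junctions and Eng is a co-receptor of the TGF-beta family. Several of these genes are not exclusive to endothelium, since Pecam1 and Eng are also made by ES cells and Flt1 by trophoblast.

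The genes lie on 7 chromosomes (coordinates of mm9, GENCODE M1). Tie1 (chr4:118143796-118162666, minus strand) and Tek (chr4:94405980-94541667, plus strand) share chromosome 4, and Kdr (chr5:76328852-76374483) and Flt1 (chr5:148373180-148537587) share chromosome 5, both on the minus strand. Flt4 (chr11:49422765-49466241, plus strand) and Pecam1 (chr11:106515531-106611942, minus strand) share chromosome 11. The others were Cdh5 (chr8:106625525-106668402), Eng (chr2:32502115-32538189) and Esam (chr9:37335663-37345904) on the plus strand and Etv2 (chr7:31418635-31421308) on the minus strand. Reads were counted over the exons of a RefSeq transcript of 1048 bases (Etv2) to 6280 bases (Flt1). Only Eng shared exonic bases with other genes, 124 with Ak1 on the same strand and 61 with Fpgs on the opposite strand, and the cDNA does not keep the strand.

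The promoters of Kdr, Flt1 and Tek are shown because these receptors differed in the direction of their fold between shSmyd5 and shLuc from day 6 on. The sequences are the bases before the RefSeq start site (table of build GRCm38.p6), matched exactly to mm9 at chr5:76374484-76374730 (Kdr, minus strand), chr5:148537588-148537837 (Flt1, minus strand) and chr4:94405730-94405979 (Tek, plus strand). Capitals mark GGAA and its reverse complement TTCC, the core letters that ETS factors bind.
Kdr: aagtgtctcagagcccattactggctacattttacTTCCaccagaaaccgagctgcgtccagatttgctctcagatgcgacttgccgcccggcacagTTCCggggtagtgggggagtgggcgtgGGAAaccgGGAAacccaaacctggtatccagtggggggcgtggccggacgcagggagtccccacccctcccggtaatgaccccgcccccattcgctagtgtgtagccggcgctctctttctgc
Flt1: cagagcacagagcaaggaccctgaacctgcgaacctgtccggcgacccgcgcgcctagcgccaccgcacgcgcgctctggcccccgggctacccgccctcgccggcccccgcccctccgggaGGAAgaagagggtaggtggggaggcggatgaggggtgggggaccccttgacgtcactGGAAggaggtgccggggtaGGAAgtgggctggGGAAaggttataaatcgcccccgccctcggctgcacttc
Tek: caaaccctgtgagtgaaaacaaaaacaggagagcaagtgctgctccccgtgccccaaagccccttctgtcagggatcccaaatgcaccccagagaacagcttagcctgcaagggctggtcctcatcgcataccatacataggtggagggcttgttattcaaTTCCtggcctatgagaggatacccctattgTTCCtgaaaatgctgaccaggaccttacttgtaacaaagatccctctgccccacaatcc
Of the 10 genes, 7 had a sequence in the table, and Cdh5, Pecam1 and Esam were not among them. In the 250 bases before the start, GGAA on either strand was found 4 times for Kdr and for Flt1, 2 times for Tek and for Flt4, 3 times for Eng, 7 times for Tie1 and 10 times for Etv2. Of all 32851 windows of this length in the table, 76.8% held at least 2 such matches, 54.7% at least 3, 33.4% at least 4, 3.82% at least 7 and 0.192% at least 10. The Tie1, Flt4 and Etv2 windows lay mostly or wholly in the annotated first exon of mm9 and are therefore not printed. The longer form CCGGAA on either strand, which contains GGAA, was found for Kdr alone (12.0% of all windows), TATAAA for Flt1 alone (12.4%), and ACAAAG, letters bound by SOX factors, for Tek and Eng (16.5%). A match is a description of these letters and not a bound site.

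Depth and knockdown were checked first. The libraries held 3895537 (shLuc ES cells) to 43377815 (shLuc d6 EBs) reads in genes, so the ES cell pair is the least precise. The RPKM (reads scaled to the length of the transcript and the size of the library) of Smyd5 was 29.7 (shLuc) and 4.51 (shSmyd5) in ES cells, 10.7 and 0.891 at 24 h, 15.4 and 0.492 at d6, 24.95 and 9.14 at d10, and 13.1 and 6.88 at d14. Smyd5 was lower in every shSmyd5 library, by log2 folds from -4.71 at d6 to -0.92 at d14. Folds between the libraries of a pair also followed base composition in some stages. Across genes, which are not independent replicates, Spearman's rho between GC content and fold was -0.68 in ES cells, 0.58 at 24 h, -0.02 at d6, -0.39 at d10 and 0.32 at d14.

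Expression of the set was low until day 6 and was present by day 10. In shLuc cells, 2 of the 10 genes had an RPKM of at least 3 in ES cells, 2 at 24 h, 3 at d6, 9 at d10 and 7 at d14. In shSmyd5 cells the counts were 2, 3, 1, 7 and 6. The highest level of a gene fell at d10 or d14 for 7 genes in shLuc and for 8 in shSmyd5. Pecam1 and Eng were highest in ES cells with either hairpin, and Etv2 was highest at d6 in shLuc but at d10 in shSmyd5. This order of the Etv2 stages was within counting error. In shSmyd5 the d10 level (1.34, Poisson interval 0.842 to 2.03) rested on 22 reads. Its interval overlapped those of d6 (1.04, 0.808 to 1.31) and ES cells (1.04, 0.752 to 1.4). In shLuc the Etv2 intervals of d6 (2.79 to 3.66) and d10 (2.24 to 3.43) overlapped too.

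**Figure D1:**
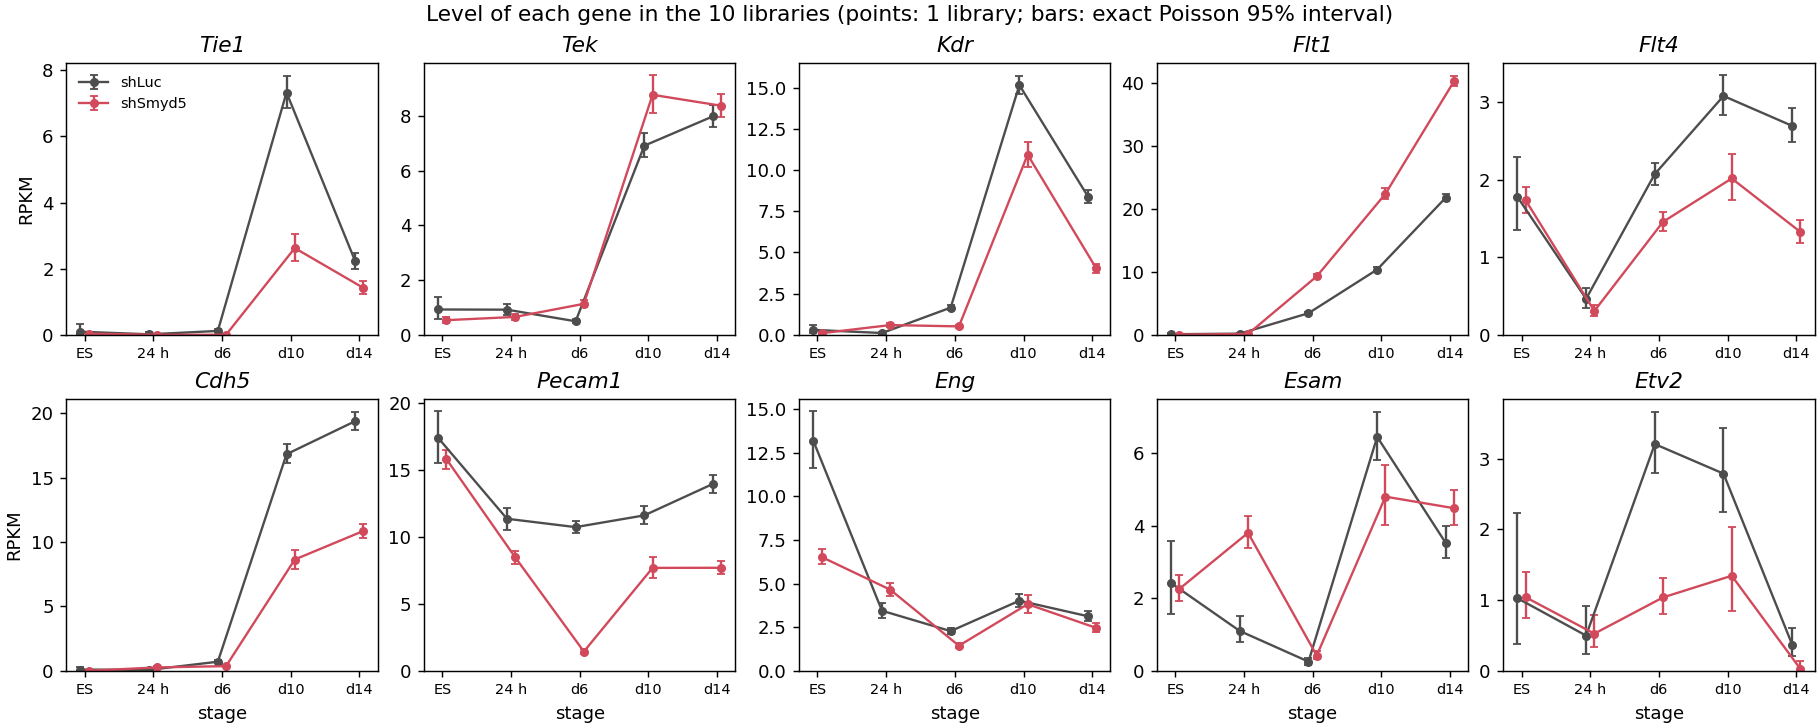
RPKM (y axis, linear, starting at 0 and scaled per gene) of the 10 genes at the 5 stages (x axis) in shLuc (grey) and shSmyd5 (red). Each point is 1 library and each bar its exact Poisson 95% interval, which covers counting error only; Tie1, Kdr and Cdh5 stay under an RPKM of 2 until d6 and reach 7.33, 15.1 and 16.8 in shLuc EBs at d10.

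The change from early to late stages was tested over all 10 libraries with the edgeR quasi-likelihood test, comparing d6, d10 and d14 EBs with ES cells and 24 h EBs and keeping the knockdown as a term. Of 12277 genes tested, 28.8% rose and 25.1% fell at a Benjamini-Hochberg adjusted p of 0.05, and of the 10 endothelial genes 6 rose and 2 fell. Flt1 rose by a log2 change of 7.40 ± 0.51 (SE, adjusted p = 2.66e-06), Cdh5 by 6.13 ± 0.64 (adjusted p = 2.95e-05), Tie1 by 5.02 ± 0.84 (adjusted p = 0.000592) and Kdr by 3.83 ± 0.54 (adjusted p = 0.000206). As 1 pair at a time was left out, these 4 genes still passed, but their sizes and order varied, with 6.12 to 8.81 for Flt1, 4.16 to 8.08 for Cdh5, 3.54 to 6.97 for Tie1 and 3.03 to 4.85 for Kdr. Without the ES pair Tie1 (6.57) lay above Flt1 (6.12), and without the 24 h pair Kdr (4.65) lay above Tie1 (3.54). Tek rose by 2.09 ± 0.38 (adjusted p = 0.000957), and Flt4 by 1.05 ± 0.30 (adjusted p = 0.0124). Eng fell by 1.45 ± 0.25 (adjusted p = 0.000731) and Pecam1 by 1.01 ± 0.32 (adjusted p = 0.0206), 2 genes that were already present in ES cells. Esam (-0.45 ± 0.40, adjusted p = 0.359) and Etv2 (-0.16 ± 0.60, adjusted p = 0.841) did not pass. The calls of Flt4 and Pecam1 were the less firm ones. Without the 24 h pair Flt4 had a log2 change of 0.15 (adjusted p = 0.721), and without the ES pair Pecam1 had -0.84 (adjusted p = 0.0922). Flt4 was also lost without the d10 pair (0.96, adjusted p = 0.0672).

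**Figure D2:**
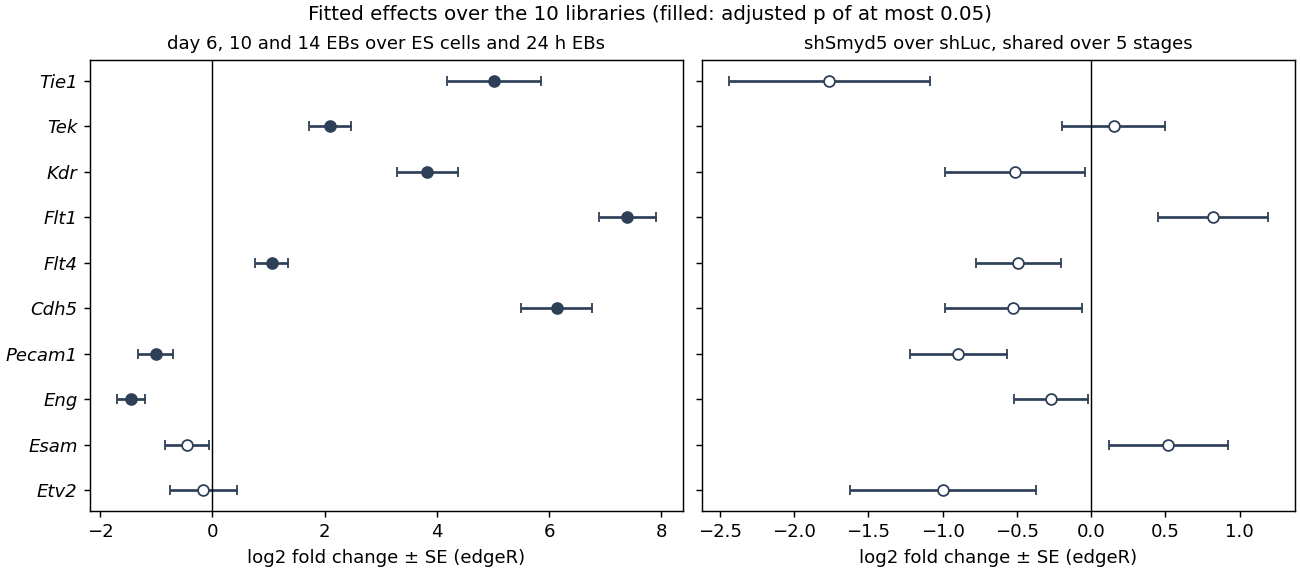
Log2 fold change with its SE (x axis) of the 10 genes (y axis) from the edgeR fit over the 10 libraries, for late against early stages (left) and for shSmyd5 over shLuc shared by the stages (right). Filled points passed an adjusted p of 0.05; 8 genes are filled on the left, from -1.45 for Eng to 7.40 for Flt1, and none on the right.

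The knockdown was compared in 2 ways, at each stage between the libraries of the pair, which has no replicate check, and over all stages in the edgeR fit with the stage as a block. At a stage, a gene was called expressed where its RPKM was 3 or more in either library of the pair, and an expressed gene was counted where it differed at least 2-fold. Folds are shSmyd5 over shLuc on the log2 scale with 0.1 added to each RPKM, which understates the change of low genes. The exact binomial 95% interval beside a fold is that of the ratio of the reads without the added 0.1. It covers counting error only and compares the 2 libraries, not the conditions. In these bulk samples, fewer endothelial cells and less RNA per cell cannot be told apart.

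Among the VEGF receptors, Flt1 was higher and Kdr lower in shSmyd5 EBs from d6 on. The RPKM of Flt1 was 0.0856 (shLuc) and 0.0282 (shSmyd5) in ES cells, 0.174 and 0.122 at 24 h, 3.42 and 9.28 at d6, 10.4 and 22.4 at d10, and 21.8 and 40.3 at d14. It was thus near absent in both early pairs and higher in the shSmyd5 library of all 3 late pairs, with log2 folds of 1.41 (1.35 to 1.53) at d6, 1.10 (1.02 to 1.20) at d10 and 0.88 (0.84 to 0.93) at d14. The Flt1 transcript listed is a single one, so a soluble form was not measured apart. The RPKM of Kdr was 0.296 (shLuc) and 0.0930 (shSmyd5) in ES cells, 0.105 and 0.588 at 24 h, 1.65 and 0.507 at d6, 15.1 and 10.9 at d10, and 8.38 and 4.02 at d14. Kdr peaked at d10 with either hairpin, and its shSmyd5 level was the lower one at each late stage. The log2 folds were -0.47 (-0.58 to -0.36) at d10 and -1.04 (-1.18 to -0.94) at d14, or -0.90 at d14 with 1 instead of 0.1 added to each RPKM. At d6, where both levels were under an RPKM of 3, the reads were 579 in shLuc and 178 in shSmyd5, and at 24 h the order was the opposite, with 11 and 134 reads.

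Since Flt1 and Kdr share the ligand VEGF-A, their levels were also set against each other within each library, as the ratio of the RPKM values. The ratio of Flt1 to Kdr was 2.08 (1.89 to 2.29) in shLuc and 18.3 (15.7 to 21.4) in shSmyd5 EBs at d6. At d10 it was 0.684 (0.645 to 0.726) and 2.05 (1.90 to 2.21), and at d14 it was 2.60 (2.47 to 2.75) and 10.0 (9.35 to 10.8). In the early libraries the ratio rested on few reads and went the other way at 24 h, 1.66 (0.763 to 3.80) in shLuc and 0.207 (0.136 to 0.306) in shSmyd5. The late pairs thus all had the greater ratio in shSmyd5, and with 1 library per condition the difference was not tested.

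**Figure D3:**
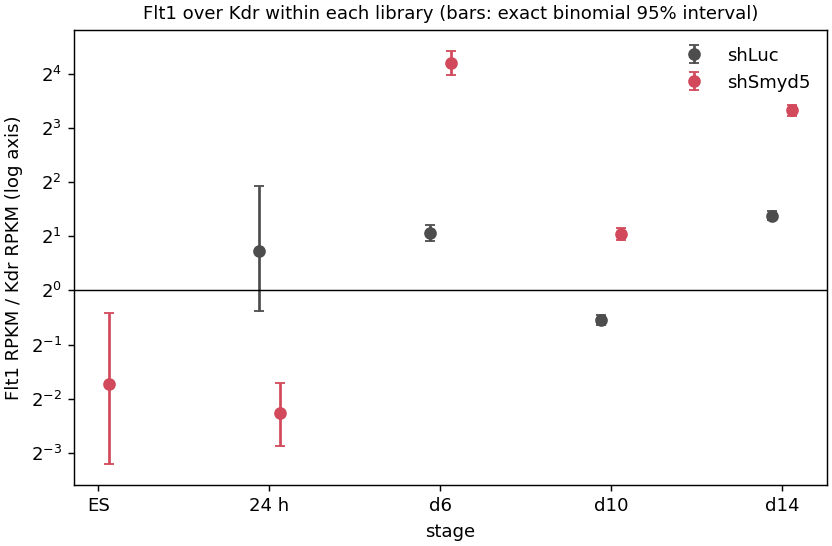
Ratio of the Flt1 to the Kdr level within each library (y axis, log scale) at the 5 stages (x axis) in shLuc (grey) and shSmyd5 (red), with exact binomial 95% intervals. At d6, d10 and d14 the shSmyd5 ratios of 18.3, 2.05 and 10.0 lie above the shLuc ratios of 2.08, 0.684 and 2.60; no ratio is drawn for shLuc ES cells, where Flt1 had 3 reads.

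Flt4 was expressed at a low level throughout. Its RPKM was 1.78 (shLuc) and 1.74 (shSmyd5) in ES cells, 0.464 and 0.307 at 24 h, 2.07 and 1.46 at d6, 3.08 and 2.02 at d10, and 2.70 and 1.33 at d14. The interval of the log2 fold included 0 in ES cells (-0.03, -0.44 to 0.39) and lay below 0 at 24 h (-0.47, -1.13 to -0.06, from 52 and 75 reads), d6 (-0.48, -0.67 to -0.35), d10 (-0.59, -0.86 to -0.37) and d14 (-0.97, -1.23 to -0.82). A spline correction for GC content and length turned the fold to 0.13 at d6, left -0.19 at d10, the 1 stage with an RPKM of at least 3, and gave -1.18 at d14. In ES cells and at 24 h the corrected folds were 0.72 and -1.04.

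The angiopoietin receptor Tek and its co-receptor Tie1 differed in the direction of their folds from d6 on. The RPKM of Tie1 was 0.0924 (shLuc) and 0.0327 (shSmyd5) in ES cells, 0.0134 and 0 at 24 h, 0.116 and 0 at d6, 7.33 and 2.62 at d10, and 2.22 and 1.42 at d14. Tie1 was at or near 0 before d10 in all libraries, and at d6 its 29 reads in shLuc stood against 0 in shSmyd5, where the binomial interval of the log2 fold ended at -2.88. At d10 the log2 fold was -1.45 (-1.74 to -1.24), and after the correction for GC content and length it was -0.9996, just short of 2-fold. The RPKM of Tek was 0.924 (shLuc) and 0.533 (shSmyd5) in ES cells, 0.917 and 0.652 at 24 h, 0.492 and 1.13 at d6, 6.91 and 8.77 at d10, and 7.99 and 8.37 at d14. It was slightly higher in shSmyd5 at d10, with a log2 fold of 0.34 (0.20 to 0.49), and at d14 the interval of its fold included 0 (0.07, -0.04 to 0.17). In shSmyd5 the d10 and d14 levels of Tek lay within each other's Poisson intervals (8.11 to 9.48 and 7.96 to 8.80). The ratio of Tek to Tie1 was 0.943 (0.860 to 1.03) in shLuc and 3.34 (2.81 to 4.004) in shSmyd5 EBs at d10, and 3.59 (3.19 to 4.06) and 5.91 (5.12 to 6.85) at d14.

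Of the junction genes, Cdh5 and Pecam1 were lower in shSmyd5 EBs at each late stage. Cdh5 encodes VE-cadherin, the adhesion protein of endothelial junctions. Its RPKM was 0.0899 (shLuc) and 0 (shSmyd5) in ES cells, 0.0653 and 0.258 at 24 h, 0.699 and 0.358 at d6, 16.8 and 8.64 at d10, and 19.4 and 10.9 at d14. It rested on 2 and 0 reads in ES cells, and its shSmyd5 level was the lower one at both d10 (log2 fold -0.95, -1.10 to -0.82) and d14 (-0.83, -0.92 to -0.75). The RPKM of Pecam1 was 17.4 (shLuc) and 15.8 (shSmyd5) in ES cells, 11.4 and 8.48 at 24 h, 10.7 and 1.43 at d6, 11.6 and 7.69 at d10, and 14.0 and 7.69 at d14. In shLuc Pecam1 stayed between 10.7 and 17.4 at all stages, while in shSmyd5 the d6 library stood far below the others. The log2 fold was -2.82 (-3.08 to -2.73) at d6, -0.59 (-0.76 to -0.43) at d10 and -0.85 (-0.97 to -0.75) at d14. Its second listed transcript had log2 folds of -2.82, -0.58 and -0.85 at these stages. The 8 pluripotent genes reached a summed RPKM of 925.3 (shLuc) and 502 (shSmyd5) at d6, with 7 of them lower in shSmyd5 and Klf4 higher (3.08 and 21.6), and the part of such cells in the Pecam1 difference was not tested.

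Eng and Esam did not keep 1 direction. The RPKM of Eng was 13.2 (shLuc) and 6.53 (shSmyd5) in ES cells, 3.44 and 4.65 at 24 h, 2.27 and 1.43 at d6, 4.02 and 3.82 at d10, and 3.12 and 2.45 at d14. Its log2 fold was -1.004 (-1.21 to -0.81) in ES cells, where the same correction left -0.18, and 0.42 (0.22 to 0.65) at 24 h, where the correction turned it to -0.32. The RPKM of Esam was 2.42 (shLuc) and 2.25 (shSmyd5) in ES cells, 1.10 and 3.80 at 24 h, 0.251 and 0.419 at d6, 6.45 and 4.80 at d10, and 3.52 and 4.48 at d14. Esam was higher in shSmyd5 at 24 h (log2 fold 1.71, 1.31 to 2.32), lower at d10 (-0.42, -0.72 to -0.14) and higher again at d14 (0.34, 0.11 to 0.59).

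Etv2 was lower in shSmyd5 EBs at d6, the stage of its highest shLuc level. Its RPKM was 1.03 (shLuc) and 1.04 (shSmyd5) in ES cells, 0.497 and 0.524 at 24 h, 3.21 and 1.04 at d6, 2.79 and 1.34 at d10, and 0.369 and 0.0244 at d14. The reads behind the late values were 217 and 70 at d6, 89 and 22 at d10, and 15 and 1 at d14. The pairs did not differ beyond counting error in ES cells and at 24 h, and at d6 the log2 fold was -1.54 (-2.04 to -1.23).

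Counted together, the endothelial genes divided by stage as follows, beside the same count over all expressed genes. In ES cells 1 of 2 genes, Eng, was at least 2-fold lower and 0 higher (all genes, 11.3% lower and 4.52% higher), and at 24 h 1 of 3, Esam, was higher and 0 lower (13.0% higher and 4.26% lower). At d6, Flt1 was higher and Pecam1 and Etv2 lower among 3 expressed genes (8.18% higher and 19.4% lower). At d10, 1 of 9, Flt1, was higher and 1, Tie1, lower (3.15% higher and 6.51% lower), and at d14 1 of 7, Kdr, was lower and 0 higher (4.07% lower and 3.17% higher). A gene can pass this limit through the 1 library where it is high, as Esam did at 24 h, Pecam1 and Etv2 at d6 and Tie1 at d10, so the counts do not by themselves show a difference. Where the mean RPKM of the pair had to reach 3, a limit chosen after the data were seen, Esam at 24 h and Etv2 at d6 were no longer counted. Then 0 of 2 genes were higher and 1 lower in ES cells (all genes, 4.09% higher and 10.8% lower) and 0 of 2 higher or lower at 24 h (11.4% and 3.33%). At d6 1 of 2 was higher and 1 lower (7.73% and 17.0%), at d10 1 of 8 higher and 1 lower (2.82% and 5.45%), and at d14 0 of 6 higher and 1 lower (2.96% and 3.07%). The median log2 fold of the expressed genes of the set was -0.47 at d10 and -0.34 at d14, beside -0.05 and 0.01 over all genes. With no limit on RPKM, 7 of the 10 genes (Tie1, Kdr, Flt4, Cdh5, Pecam1, Eng and Etv2) had a fold below 0 at each of d6, d10 and d14, against 26.2% of the 12277 genes of the shared test, and 2 (Tek and Flt1) had a fold above 0 at each, against 14.4%. Some of these folds, such as that of Eng at d10 (-0.07, -0.32 to 0.17), were within counting error. After the correction for GC content and length, 5 genes (Tie1, Kdr, Cdh5, Pecam1 and Etv2) were below 0 at all 3 stages, against 24.6% of 11695 genes, since Flt4 turned to 0.13 at d6 and Eng to 0.34 at d10, and the same 2 were above 0, against 23.1%.

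**Figure D4:**
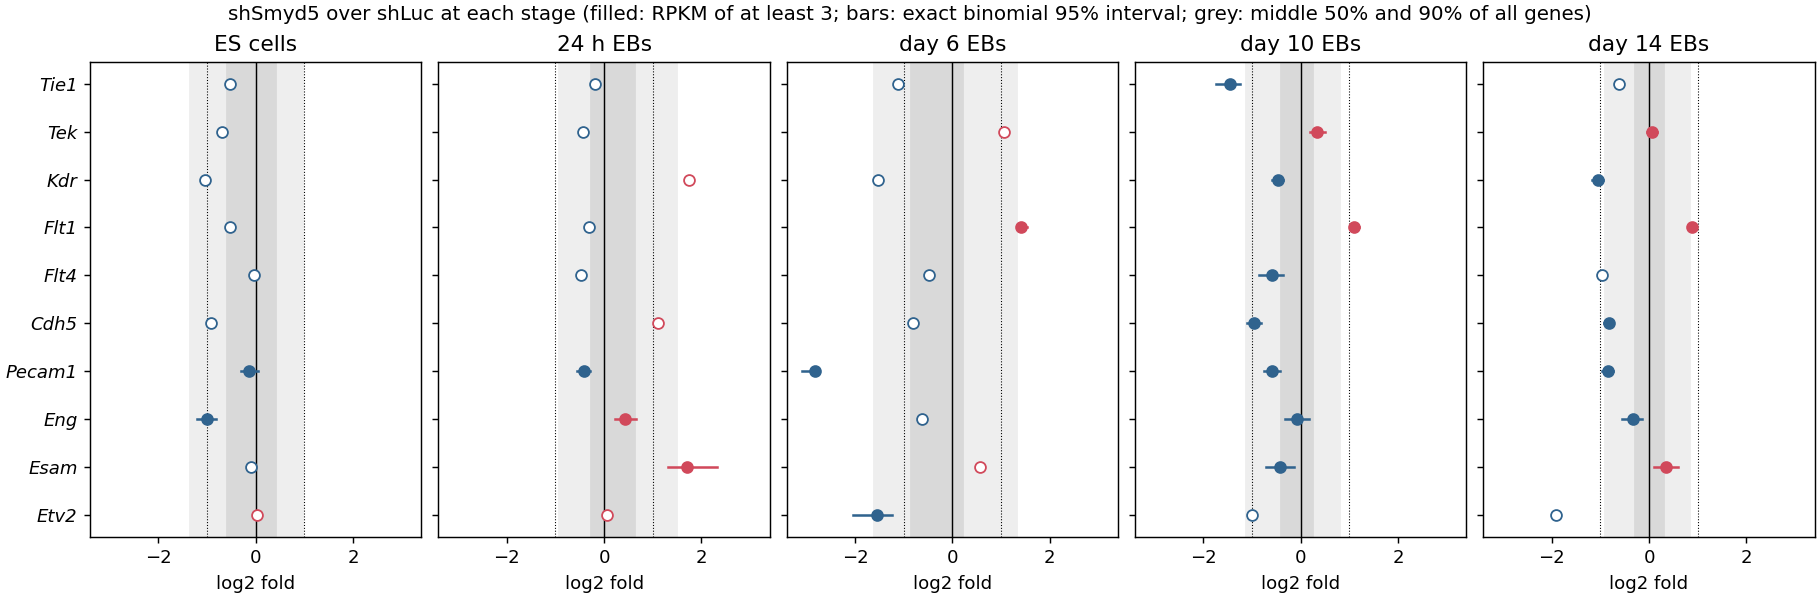
Log2 fold of shSmyd5 over shLuc (x axis) of the 10 genes (y axis) in each pair of libraries, blue below 0 and red above. Filled points were expressed (an RPKM of 3 or more in either library) and carry an exact binomial 95% interval, open points did not; grey bands hold the middle 50% and 90% of all expressed genes, and dotted lines mark 2-fold. Pecam1 at d6 (-2.82) lies farthest out.

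Over all 5 stages, the edgeR quasi-likelihood test with the stage as a block called none of the 10 genes, and 0% of the 12277 genes tested (1425 genes, 11.6%, and 3 of the 10 had an unadjusted p under 0.05). DESeq2 on the same reads called 333 genes and none of the 10. Smyd5 itself had a log2 effect of -2.63 ± 0.51 (edgeR adjusted p = 0.107) and did not pass. The lowest edgeR adjusted p values of the set were those of Pecam1 (-0.89 ± 0.33, adjusted p = 0.322), Tie1 (-1.76 ± 0.68, adjusted p = 0.344) and Flt1 (0.82 ± 0.37, adjusted p = 0.428). In simulated libraries this test recovered 93% of genes changed 2-fold where the biological coefficient of variation was 0.2, and 28% where it was 0.33. The coefficient of the real libraries is not given here, so neither share can be read as the power in these data. The simulated effect was the same at every stage, so these shares do not tell how often an effect that changes between stages is found.

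Because most of the genes were low before d10, the d10 and d14 pairs were also fitted alone, a choice made after the data were seen. This fit has 1 residual degree of freedom and leans on the spread shared by all genes. It called 5.90% of 12277 genes lower and 4.77% higher, and of the 10 endothelial genes it called 4 lower and 1 higher by edgeR's quasi-likelihood test. Cdh5 was lower by a log2 effect of -0.88 ± 0.24 (adjusted p = 0.0037), Tie1 by -1.05 ± 0.31 (adjusted p = 0.0119), Kdr by -0.74 ± 0.24 (adjusted p = 0.0226) and Pecam1 by -0.71 ± 0.25 (adjusted p = 0.0467), and Flt1 was higher by 1.02 ± 0.22 (adjusted p = 0.000168). With the d6 pair added, none of the 10 passed, the lowest adjusted p being 0.0637 for Flt1.

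The ligands and co-receptors of these receptors, 12 genes, did not shift as 1 group. In the late against early test, 8 of the 11 tested genes rose and 1, Vegfc, fell (all genes, 28.8% and 25.1%), and 0 were called for the knockdown. Vegfa is the shared ligand of Kdr and Flt1, and its RPKM was 5.33 (shLuc) and 8.97 (shSmyd5) in ES cells, 3.54 and 7.80 at 24 h, 26.0 and 57.5 at d6, 37.3 and 56.0 at d10, and 57.8 and 80.7 at d14. It was thus higher in the shSmyd5 library of all 5 pairs, with a shared log2 effect of 0.88 ± 0.20 that did not pass the edgeR test (adjusted p = 0.172). Vegfc, the ligand of Flt4, had log2 folds from 0.19 in ES cells to -2.22 at d6. At d6 its RPKM was 2.99 in shLuc and 0.561 in shSmyd5, both under the limit of 3. Its RPKM was 10.5 in shLuc and 5.58 in shSmyd5 at d10 and 13.0 and 8.37 at d14. Nrp1, the co-receptor that presents VEGF-A to Kdr, had an RPKM of 1.56 and 5.91 at d6, 65.6 and 57.0 at d10, and 91.9 and 34.5 at d14, with log2 folds of 1.85, -0.20 and -1.41. Vegfb differed little at the late stages, with log2 folds from -0.18 to 0.005. Of the expressed genes, 2 of 4 (Vegfa and Vegfb) were at least 2-fold higher at 24 h (all genes, 13.0%), 2 of 4 (Vegfa and Nrp1) higher at d6 (8.18%) and 1 of 8 (Nrp1) at least 2-fold lower at d14 (4.07%). After the correction for GC content and length, the 24 h log2 folds were 0.91 (Vegfa) and 0.15 (Vegfb), both short of 2-fold. The corrected folds at d6 (Vegfa 1.54, Nrp1 2.28) and at d14 (Nrp1 -1.28) stayed beyond it. The median log2 fold was -0.19 at d10 and -0.42 at d14, or -0.63 at d14 over the 7 genes with a pair mean of 3 (all expressed genes, -0.05 and 0.01).

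Of 21 transcription factors known from endothelium, 15 of the 17 tested rose from early to late stages and 1, Klf2, fell (all genes, 28.8% and 25.1%), and none was called for the knockdown. Klf2, which endothelium induces under flow and ES cells use for self-renewal, had RPKM values of 302 (shLuc) and 169 (shSmyd5) in ES cells, 93.6 and 97.2 at 24 h, 59.9 and 16.0 at d6, 9.38 and 5.71 at d10, and 14.0 and 4.57 at d14. Its log2 fold in ES cells was -0.84, or 0.14 after the correction for GC content and length. Sox17 went the other way. Its RPKM was 1.29 and 36.8 at d6, 10.8 and 30.7 at d10, and 19.5 and 45.0 at d14. Sox17 and Sox7 serve endoderm as well as endothelium. At d10 3 of 16 expressed factors were at least 2-fold lower (Tal1, Erg and Sox18) and 2 higher (Sox7 and Sox17), and at d14 3 of 14 were lower (Fli1, Sox18 and Klf2) and the same 2 higher. Over all expressed genes 6.51% were lower and 3.15% higher at d10, and 4.07% and 3.17% at d14. With a pair mean of 3, Erg was no longer counted at d10. Tal1, which specifies blood and endothelial precursors, stood at an RPKM of 7.37 (shLuc) and 2.43 (shSmyd5) at d10, and Fli1, an ETS factor, 6.69 and 2.16 at d14. Nr2f2, a factor of venous identity, had 17.4 and 8.68 at d10 and 35.8 and 19.0 at d14, and Ets2 differed little at d14 (45.3 and 45.9). The median log2 fold of the expressed factors was 1.15 at d6, -0.34 at d10 and -0.30 at d14, beside -0.35, -0.05 and 0.01 over all expressed genes. The d6 value was 0.39 over the 6 factors with a pair mean of 3.

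The last list held 36 further surface and junction genes, such as Cldn5, Lyve1 and Jam2. At d10 8 of the 22 expressed genes were at least 2-fold lower and 1, Thbd, higher, and at d14 9 of 21 were lower and 1, Thbd again, higher. Over all expressed genes, 6.51% were lower at d10 and 4.07% at d14. Several of these passed the limit only through the library where they were high, such as Cldn5, Emcn and Jam2 in shLuc and Thbd in shSmyd5. Where the pair mean had to reach 3, 7 of 20 were lower and 0 higher at d10 (all genes, 5.45% and 2.82%) and 6 of 18 lower and 1, Thbd, higher at d14 (3.07% and 2.96%). The 9 genes lower at d14 were Emcn, Cldn5, Calcrl, Cd93, S1pr1, Lyve1, Efnb2, Jam2 and Jam3. Lyve1, a hyaluronan receptor of lymphatic and yolk sac endothelium, stood at an RPKM of 12.2 (shLuc) and 4.77 (shSmyd5) at d14, and Cldn5, a tight junction protein, 6.82 and 1.31 at d10 and 3.55 and 1.62 at d14. The junction protein Jam2 had 93.2 and 51.7 at 24 h, 3.33 and 0.412 at d10, and 3.10 and 0.536 at d14. Jam2 is thus most abundant before endothelial genes appear, and it fell from early to late stages (log2 change -4.83 ± 0.37, edgeR adjusted p = 4.52e-06). Efnb2, an ephrin of arterial cells, had 42.3 and 20.9 at d14. Ramp2, a co-receptor of adrenomedullin, and F11r, a junction protein that epithelia make too, were among the higher ones in shSmyd5 at d14, with 43.2 and 59.8 for Ramp2 and 29.4 and 50.2 for F11r. So were Egfl7, a secreted protein of endothelium (6.70 and 12.6), and Ephb4, the venous receptor of Efnb2 (12.9 and 17.6). Thbd, the thrombin receptor thrombomodulin, had 0.825 and 5.67 at d14. The median log2 fold of the expressed genes of the list was -0.55 at d10 and -0.68 at d14, and with a pair mean of 3 it was -0.55 and -0.21. None of the 24 tested genes was called for the knockdown, while 17 rose and 2 fell from early to late stages (all genes, 28.8% and 25.1%). The genes of these lists left out of the tests had a mean RPKM under 1, so the counts cover only those that reached it.

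**Figure D5:**
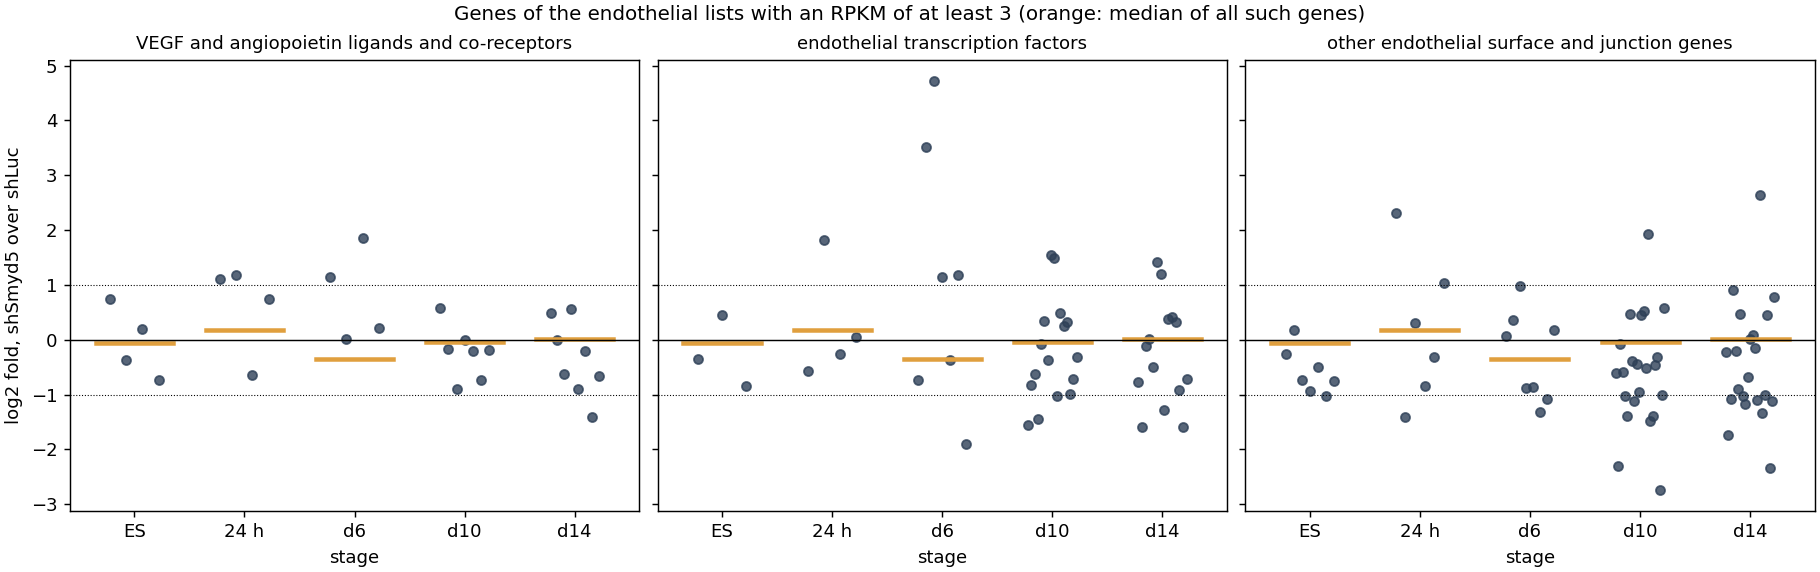
Log2 fold of shSmyd5 over shLuc (y axis) of each expressed gene (an RPKM of 3 or more in either library) in the 3 endothelial lists, by stage (x axis). Each point is 1 gene in 1 pair of libraries, orange bars give the median of all genes and dotted lines mark 2-fold; in the list of surface and junction genes 9 of 21 points lie at least 2-fold below 0 at d14, and Sox17 (4.73) is the highest transcription factor at d6.

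Markers of other cell types differed between the libraries too. The 11 genes of primitive and visceral endoderm reached a summed RPKM of 167 (shLuc) and 1053 (shSmyd5) at d6, 1770 and 1894 at d10, and 4174 and 4064 at d14. Afp alone made up much of the late sums (922 and 626 at d10, 2512 and 2332 at d14). Of the 11 genes, 11 were higher in shSmyd5 at d6. At d10, 9 were higher and 2 lower, and at d14, 8 were higher and 3 lower. The 13 blood and platelet genes summed to 27.7 and 6.25 at d6, 712 and 394 at d10, and 193 and 276 at d14, with 1 gene at 0 reads in each d10 library and none at d14. The shLuc sum at d6 came mostly from Myb (25.8 and 1.53), while Runx1 went the other way (0.987 and 3.67). At d6, 3 of the 13 were higher in shSmyd5, 5 lower and 5 equal. At d14, 8 of the 13 were lower in shSmyd5, among them the platelet genes Ppbp (45.1 and 3.46) and Pf4 (29.4 and 10.0), while the 3 globins were higher, Hbb-y with 27.5 and 107. The 9 mesenchyme and mural genes summed to 21.4 and 52.8 at d6, 555 and 259 at d10, and 2590 and 1549 at d14. Of these 9, 7 were higher in shSmyd5 and 2 lower at d6. At d10, 1 was higher and 8 lower, and at d14, 3 were higher and 6 lower. The d14 sums came mostly from the collagens Col1a1 (856 and 529), Col1a2 (857 and 422) and Col3a1 (635 and 347). The 3 higher at d14 were Acta2 (139 and 145), Tagln (17.4 and 26.3) and Pdgfra. The 6 early mesoderm genes summed to 25.9 and 42.7 at d6, 129 and 165 at d10, and 132 and 124 at d14. The d10 and d14 sums of early mesoderm came mostly from Hand1 and Pdgfra. Hand1, which is also in the trophoblast list, had 104 and 114 at d10 and 87.8 and 57.3 at d14. Pdgfra had 18.2 and 47.4 at d10 and 41.2 and 64.1 at d14. At d6, T (11.3 and 15.2), Hand1 (1.42 and 3.80) and Pdgfra (1.92 and 17.8) were higher in shSmyd5. Mesp1, Mixl1 and Gata2 were lower in shSmyd5 at that stage, and Pdgfra is in the mesenchyme list too. The 6 trophoblast genes, relevant to Flt1, summed to 19.2 and 18.6 at d6, 118 and 124 at d10, and 94.3 and 64.0 at d14. The d6 sums came mostly from Eomes, and the d10 and d14 sums mostly from Hand1. Of the other 4, Cdx2 reached 10.6 (shLuc) and 5.67 (shSmyd5) at d10, Elf5 and Gcm1 stayed under an RPKM of 0.2, and Prl3d1 had 0 reads in every library. The 8 pluripotent genes summed to 3197 and 2514 in ES cells and to 133 and 103 at d14. The part of these other cells in the differences above was not tested.

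Finally, the genes with the profile most like that of the set were sought over the 10 libraries, as Pearson's r with the mean of the 10 centred log2 profiles, among 12078 other genes that reached an RPKM of 3 in any library. The 10 highest were Mir1895 (0.988), Wnt2 (0.987), Pkdcc (0.986), Fam115a (0.983), Atxn7l3b (0.982), Cdx2 (0.981), Rgs5 (0.981), Igfbp4 (0.981), Nuak1 (0.979) and Frmd6 (0.979). Only 3 of these 10 remained among the 10 highest with a pseudocount of 1 instead of 0.1. The genes listed peaked at d10 or d14, as most of the set did, and none was in the endothelial lists. Wnt2, a Wnt ligand, stood at an RPKM of 3.49 (shLuc) and 2.15 (shSmyd5) at d10, and Pkdcc, a secreted kinase, 27.9 and 15.2. Igfbp4, which binds insulin-like growth factors, had 103 and 65.7, and Rgs5, a regulator of G-protein signalling known from pericytes, 8.82 and 8.46. The values describe libraries that share stage and depth, and no p is given. Within the set, r with the mean profile was 0.99 for Tie1, 0.97 for Kdr, 0.97 for Cdh5, 0.92 for Tek, 0.81 for Flt1, 0.66 for Flt4 and 0.58 for Esam, and near 0 for Pecam1 (0.12), Eng (-0.16) and Etv2 (0.005). The mean holds the gene itself and the profiles were not scaled, so part of each r is built in, most for genes with wide changes.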

How the data were processed

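RNA-Seq of polyA RNA from 10 libraries was used. Per the labels, the authors mapped reads to mm9 with Bowtie2 and CASAVA (versions not given in the sources used here). The deposited read counts are whole reads per RefSeq transcript, and the deposited RPKM values are the authors' scaling of these by length and library size. Of 29257 transcripts, 1 per symbol was kept, the one with the most reads. Genes whose mean RPKM over the libraries was 1 or more were tested with edgeR 4.0.16 (TMM, quasi-likelihood, stage plus knockdown) in R 4.3.3, with DESeq2 1.42.0 and limma 3.58.1 as alternatives, and p values were adjusted over all genes tested. With 1 library per condition, the spread is what the additive model leaves, so it includes changes of the knockdown effect between stages and may be technical. Pair folds and Poisson and binomial intervals used Python 3.11.15 and scipy 1.17.1. Alternatives changed the pseudocount (1, 0.01), RPKM limit, scaling, GC and length correction, transcript, terms and stages. The tests were tested on simulated counts. GC content was had for 88.4% of symbols. Depth was 3895537 to 43377815 reads in genes. The 10 genes, the lists and the named genes were chosen with earlier results of these data known. Of each list the 4 genes of highest RPKM were named, and so were the 10 genes most like the set. Further list genes were singled out after their values were seen. These were genes at least 2-fold lower or higher at d10 or d14, and Egfl7 and Ephb4, which were less than 2-fold higher at d14. Spi1 is listed under its older symbol Sfpi1.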

Additional observations from a re-analysis of the deposited data

Results flagged for a closer look

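Eng and Esam stood out because the fold of shSmyd5 over shLuc lay on opposite sides of 0 at different stages, with each interval of the reads clear of 0 and an RPKM of at least 3. The log2 fold of Eng was -1.004 in ES cells, 0.42 at 24 h and -0.34 at d14. That of Esam was 1.71 at 24 h, -0.42 at d10 and 0.34 at d14. The difference between stages was not tested, since each value compares 1 library with 1 library. After the correction for GC content and length, Eng was -0.18, -0.32 and -0.58 and Esam 1.18, -0.31 and 0.20 at the same stages.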

How the results depend on the processing

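Every difference between the hairpins rests on 1 library per condition, and the shLuc ES library is the shallowest. The knockdown fit pairs the libraries by stage, and without the stage term it called none of the 10 genes either (adjusted p = 0.9998 for each). The counts of genes at least 2-fold apart were small and moved with the settings. In ES cells the 1 gene lower became 0 with a pseudocount of 1, relative to the median of all genes or freed of GC and length, and 2 with no RPKM limit. With no RPKM limit, 3 were higher at 24 h, 2 higher and 4 lower at d6, 2 lower at d10 and 2 lower at d14. A pair mean RPKM of 3, added after the data were seen, gave 0 higher at 24 h and 1 lower at d6. An RPKM limit of 1 gave 2 higher at d6 and 2 lower at d10. Freed of GC and length, 0 were lower at d10 (Tie1 -0.9996, just under 2-fold) and 1 was higher at d14 (Flt1 1.01). A pseudocount of 1 gave 0 lower at d14. From early to late stages, 1 gene instead of 2 fell with limma (Pecam1 -0.79, adjusted p 0.0807), without a knockdown term, and with only d10 and d14 as late stages, and leaving out 1 pair in turn gave 1 to 2. Flt4 was lost with GC and length offsets (0.72, adjusted p 0.0808). Esam turned to 0.71 with d10 and d14 as late stages and ranged from -1.17 to 0.70 as 1 pair at a time was left out, with 0.70 without the d6 pair. Etv2 turned to 0.24 with limma, 0.31 with GC and length offsets, 0.12 without a knockdown term, and ranged from -0.81 to 1.09 as pairs were left out, with 0.11 without the ES pair and 1.09 without the d14 pair. limma called 4497 genes higher and 2090 lower in place of 3530 and 3081, and library totals alone moved the median change of all genes from 0.05 to 0.16 on the log2 scale. For the knockdown, DESeq2 called 176 genes higher and 157 lower and no filter gave 112 and 51, while leaving out 1 pair gave 0 to 6 higher and 0 to 1 lower. Settings added after the data were seen were the d6, d10 and d14 pairs alone (55 higher, 24 lower) and the d10 and d14 pairs alone (586 higher, 724 lower, of which 1 and 4 were among the 10 genes, with Esam at -0.013). Tek turned to -0.19 without the d6 pair, the low end of a range up to 0.38. Of the 10 genes most like the set, 3 were shared with a pseudocount of 1. The causes of these shifts were not tested.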
